A study of Mus musculus with 8 samples.

Results

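The sestrins, the TSC complex and the core of mTORC1 were described by 10 genes: Sesn1, Sesn2, Sesn3, Ddit4, Tsc1, Tsc2, Rheb, Mtor, Rptor and Rps6kb1. They were chosen by gene name, for their place in the pathway, with earlier results of these data known. The authors' deposited table holds 15853 genes. All 10 were found there, and all 10 passed the authors' filter on low values. The knockout macrophages were Mirc11fl/fl Mirc22fl/fl Lyz2Cre/Cre (4 libraries) and the control macrophages Mirc11fl/fl Mirc22fl/fl Lyz2+/+ (4 libraries). Both groups thus carried loxP-flanked copies of the same pair of miRNA clusters, and Cre, driven by the myeloid gene Lyz2, was present in the knockout cells alone. The products of Mirc11 and Mirc22 are the miRNAs miR-23, miR-24 and miR-27. Bone marrow of either genotype was grown into macrophages over 7 days in medium conditioned by L929 fibroblasts. For a further 24 h the medium held palmitate at 250 uM, glucose at 25 mM and insulin at 10 nM, and their polyadenylated RNA was sequenced. The submitters call the 4 libraries of each genotype biological replicates, and whether each came from its own animal is not stated.

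mTORC1 is a protein kinase complex on the lysosome that turns on protein and lipid synthesis when growth factors and amino acids are plentiful. Its kinase is mTOR, raptor brings it its substrates, and the small GTPase Rheb switches it on. The TSC complex, built on Tsc1 and Tsc2, switches Rheb off, and insulin signalling relieves that brake through Akt. Sestrins and Ddit4 (also called REDD1) are stress-induced inhibitors: sestrins hold back the amino acid branch through GATOR2, Sesn2 being a leucine sensor, and Ddit4 acts through TSC.

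The 4 miRNA sequences that follow show the seeds with which the deleted clusters recognise mRNAs. They are RefSeq's mature mouse sequences (GRCm38.p6), with the seed, bases 2 to 8, in capitals.
mmu-miR-23a-3p: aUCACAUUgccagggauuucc
mmu-miR-27a-3p: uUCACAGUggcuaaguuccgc
mmu-miR-27b-3p: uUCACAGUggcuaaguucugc
mmu-miR-24-3p: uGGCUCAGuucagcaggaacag
The sequences of miR-27a and miR-27b share 1 seed, and miR-24-3p is made from both clusters. Mir23a, Mir27a and Mir24-2 lie on chromosome 8, and Mir27b and Mir24-1 on chromosome 13. miR-23b-3p is named only.

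Matches to these seeds in the 4 members called higher are shown next, as places where the mRNA letters are complementary to a seed. Binding at these places was not measured. Sesn1, Rptor and Rps6kb1, which were not called, also held matches, and those are not shown. The third miR-23 match of Sesn3 and its 2 miR-27 matches are not shown either. Each line holds 30 bases of mRNA-sense DNA from the 3' UTR (GENCODE M21, GRCm38), with the match in capitals.
Sesn2 miR-23: tcccacccatcAATGTGAAagttggactca
Sesn2 miR-24: aacaaaaaaacCTGAGCCtttcttaggtga
Sesn2 miR-27: cagagcaaacaACTGTGAAttctgatgtcc
Sesn3 miR-23, the first: caataacgtgaAATGTGAtagccgtcatcc
Sesn3 miR-23, the second: atccacaatttAATGTGAAattaattatga
Sesn3 miR-23, the fourth: aagtacccttaAATGTGAAagtgggcgtgc
Ddit4 miR-27: tggaggattcaACTGTGAggagaggggctg
Tsc1 miR-24: aagtaggcagcCTGAGCCActggaggatgg
Tsc1 miR-27: gcttgtgtttaACTGTGAAcaaataaagat
The Sesn2 matches lie in exon 10 on the minus strand of chromosome 4, at 132493202 to 132493209 for miR-23, 132492788 to 132492794 for miR-24 and 132492425 to 132492432 for miR-27. The Tsc1 matches lie in exon 23 on the plus strand of chromosome 2, at 28690585 to 28690592 for miR-24 and 28691137 to 28691144 for miR-27. In Ddit4 the match lies in exon 3 on the minus strand of chromosome 10, at 59949851 to 59949857. The first and second Sesn3 matches lie in exon 10 on the plus strand of chromosome 9, at 14326355 to 14326361 and 14326381 to 14326388, and the fourth at 14328777 to 14328784.

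The comparison of knockout with control cells asks how these transcripts differ when the clusters are targeted in myeloid cells. Cre and the level of Lyz2 differ between the same groups, and their parts cannot be told apart from that of the clusters. Levels are the mean DESeq2-normalized count over all libraries, and each group's mean was derived here from that mean and the fold change, with equal group sizes. Values of single libraries were not used, so no spread stands beside a level, and the standard error (SE) of the authors' log2 fold change carries the replicate error. A gene is called where the authors' DESeq2 adjusted p is under 0.05. Direction was read from Lyz2, which carries the Cre insertion: its log2 fold change was -9.10 (SE 0.42) in the authors' deposited table, taken as lower in knockout. Having set the direction, Lyz2 cannot also check the labels. In bulk RNA, a change in the share of a cell type and a change in RNA per cell cannot be told apart.

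Of the 10 genes, 4 were called higher in knockout cells and 0 lower, with a median log2 fold change of 0.11. Of 14619 genes tested in the authors' deposited table, 23.0% were called, 11.3% higher and 11.7% lower, with a median of -0.00. The 4 were Sesn2, Sesn3, Ddit4 and Tsc1, all of them inhibitors of the pathway. Among the inhibitors (the sestrins, Ddit4, Tsc1 and Tsc2), 4 of 6 were called higher and the median was 0.50. Among Rheb, Mtor, Rptor and Rps6kb1, which activate or carry out mTORC1 signalling, 0 of 4 were called by DESeq2, 0 had an unadjusted p under 0.05, and the median was -0.06. The difference between these sets was not tested, since the genes come from the same libraries. All 10 were also chosen with earlier results of these data known.

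**Figure D1:**
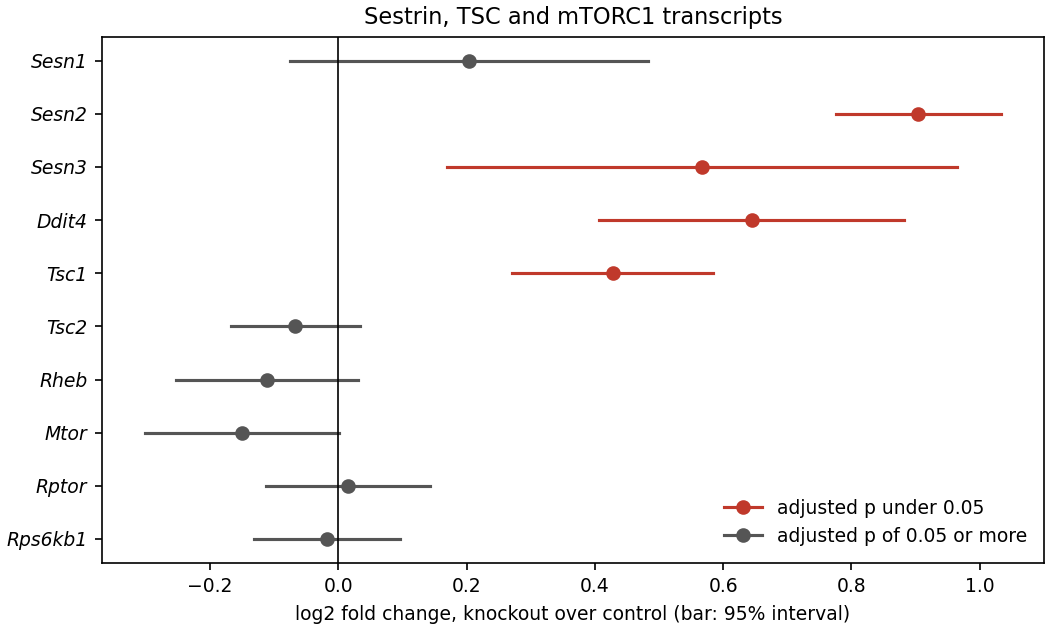
Log2 fold change of each member, knockout over control (x axis), with its 95% interval as a bar. Red marks an adjusted p under 0.05, and the 4 red genes, Sesn2 (0.90), Ddit4 (0.64), Sesn3 (0.57) and Tsc1 (0.43), lie to the right of 0.

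Sesn2, the stress-induced sestrin and leucine sensor, had a derived mean of 5922 normalized counts in knockout cells and 3164 in control cells. Its log2 fold change was 0.90 (SE 0.07, 95% interval 0.78 to 1.03, adjusted p = 6.85e-40 by DESeq2) in the authors' deposited table, a 1.87-fold higher level. By p-value it ranked 10 among the 15849 genes with one, and 7 among those called higher. Its SE was 0.876 times the median SE of the 2341 genes within 1.5-fold of its mean. The gene lies at chr4:132492032-132510501 on the minus strand (GRCm38).

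Sesn3, a sestrin known as a FOXO target, had a derived mean of 1777 normalized counts in knockout cells and 1199 in control cells. Its log2 fold change was 0.57 (SE 0.20, 95% interval 0.17 to 0.97, adjusted p = 0.0271 by DESeq2) in the authors' deposited table. Its error was large, with an SE 2.31 times the median of 2273 genes of like mean, and the call is lost at an adjusted p threshold of 0.01. It lies at chr9:14275067-14333101 on the plus strand.

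Sesn1, a sestrin first known as a p53 target, was the most abundant of the members per transcript length. It had a derived mean of 13919 normalized counts in knockout cells and 12090 in control cells. The log2 fold change of Sesn1 was 0.20 (SE 0.14, adjusted p = 0.311 by DESeq2) in the authors' deposited table, and its interval, -0.08 to 0.48, leaves room for no change and for a 1.40-fold higher level. Like that of Sesn3, its SE was well above that of genes of like mean, by 1.94 times, whereas for the other 8 members this ratio ran from 0.699 to 1.06. Sesn1 lies at chr10:41809935-41908424 on the plus strand. Whether the 3 sestrins differ from each other in their change was not tested.

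Ddit4, which is induced by hypoxia, glucocorticoids and amino acid shortage and activates TSC, had a derived mean of 406 normalized counts in knockout cells and 260 in control cells. Its log2 fold change was 0.64 (SE 0.12, 95% interval 0.41 to 0.88, adjusted p = 3.25e-06 by DESeq2) in the authors' deposited table, a 1.56-fold higher level. The gene lies at chr10:59949669-59951834 on the minus strand.

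Tsc1, hamartin, which stabilises Tsc2 within the complex, had a derived mean of 4262 normalized counts in knockout cells and 3169 in control cells. In the authors' deposited table the log2 fold change of Tsc1 was 0.43 (SE 0.08, 95% interval 0.27 to 0.58, adjusted p = 3.08e-06 by DESeq2), a 1.34-fold higher level. It lies at chr2:28641228-28691167 on the plus strand. Its partner Tsc2, tuberin, which carries the GTPase-activating activity toward Rheb, had a derived mean of 6041 normalized counts in knockout cells and 6329 in control cells. For Tsc2 the authors' deposited table gave -0.07 (SE 0.05, 95% interval -0.17 to 0.03, adjusted p = 0.356 by DESeq2). The transcripts of the 2 partners thus had intervals that did not overlap, though the difference between their changes was not tested. Tsc2 lies at chr17:24595816-24632630 on the minus strand, and 693 of its exon bases (11.1%) are also exon of Pkd1 on the other strand. The use of strand in counting is not stated in the sources used here, and reads from those bases may therefore belong to either gene.

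Rheb, the GTPase that activates mTORC1, had a derived mean of 5192 normalized counts in knockout cells and 5607 in control cells. Its log2 fold change was -0.11 (SE 0.07, 95% interval -0.25 to 0.03, adjusted p = 0.271 by DESeq2) in the authors' deposited table. Mtor, the kinase, had a derived mean of 3968 normalized counts in knockout cells and 4405 in control cells. Of the members below 0, all uncalled, Mtor lay furthest from it in the authors' deposited table, at -0.15 (SE 0.08, 95% interval -0.30 to 0.00, adjusted p = 0.145 by DESeq2). Neither passed the test. Rheb lies at chr5:24802823-24842624 on the minus strand and Mtor at chr4:148448611-148557683 on the plus strand.

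Rptor, which encodes raptor, had a derived mean of 8196 normalized counts in knockout cells and 8109 in control cells. For Rptor the authors' deposited table gave a log2 fold change of 0.02 (SE 0.07, 95% interval -0.11 to 0.14, adjusted p = 0.898 by DESeq2). Rps6kb1, S6 kinase 1, which mTORC1 phosphorylates to raise protein synthesis, had a derived mean of 2170 normalized counts in knockout cells and 2196 in control cells. The authors' deposited table gave Rps6kb1 a log2 fold change of -0.02 (SE 0.06, 95% interval -0.13 to 0.10, adjusted p = 0.872 by DESeq2). For both genes the interval ends within 0.15 of 0 on the log2 scale, which bounds any difference but does not show that there is none. Rptor lies at chr11:119602905-119899576 on the plus strand and shares 84 exon bases (1.27%) with the antisense gene Rptoros. Rps6kb1 lies at chr11:86498871-86544805 on the minus strand and shares 155 (2.80%) with Rnft1.

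**Figure D2:**
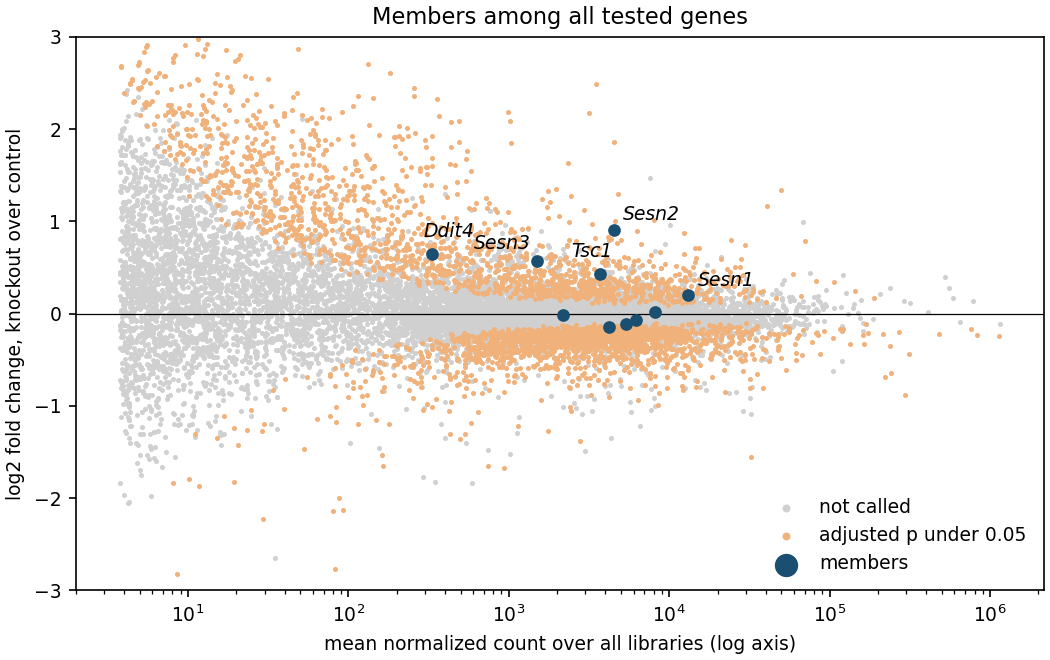
Mean normalized count over all libraries (x axis, log scale) against the log2 fold change, knockout over control (y axis), for all genes with an adjusted p, orange where it is under 0.05. The members are in blue, with Sesn2 above most genes of its mean and the 5 unlabelled members near 0, while 12 genes fall beyond the plotted range.

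Levels were compared between genes only per kilobase of the longest coding transcript. On that scale the mean over all libraries was 3414 normalized counts per kb for Sesn1 and 3027 for Rheb, the highest pair. Sesn2 (1307), Rptor (1236) and Tsc2 (987) followed. Mtor (489), Tsc1 (482) and Rps6kb1 (395) were lower again, and Ddit4 (190) and Sesn3 (163) were lowest. The value of Sesn3 depends on the transcript chosen, as its coding transcripts run from 1700 to 9125 bases. Sesn2 had 1704 normalized counts per kb in knockout cells and 910 in control cells, so it stood above Rptor in knockout cells (1243) and below it in control cells (1230). No spread over libraries was available, so the order of neighbours is a description only.

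**Figure D3:**
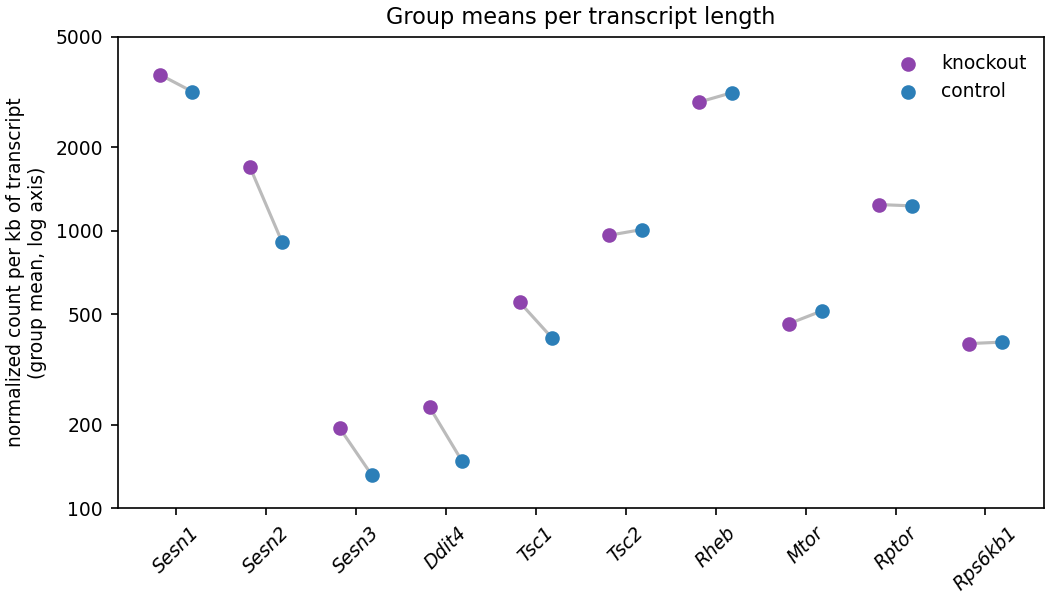
Derived group mean of each member, in normalized counts per kb of its longest coding transcript (y axis, log scale), with the knockout point left of the control point. Sesn1 and Rheb are highest in both groups, and the gap between the points is widest for Sesn2, at 1704 in knockout cells and 910 in control cells.

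Among the members, only Sesn2 held a seed match for each of miR-23, miR-27 and miR-24 in its longest annotated 3' UTR, and 4.95% of 13058 genes did. A match was 7 or 8 bases on the mRNA strand, with any overlap between kinds counted as 1 match. For miR-23 the search was for AATGTGAA, or its first or last 7 bases, for miR-27 for ACTGTGAA and for miR-24 for CTGAGCCA in the same way. The Sesn2 UTR has 1684 bases, with 8-base matches to miR-23 and miR-27 at 507 and 1284 bases after the stop codon and a 7-base match to miR-24 at 922. Of the 647 genes with a match for each of the 3, 19.3% were called higher and 7.57% lower in the authors' deposited table. Of the 6974 genes with a match for any of the 3 the shares were 14.8% and 10.6%, and of the 6084 with none 8.97% and 14.9%. These classes were not matched for UTR length or level, and longer UTRs hold more matches of any short sequence. The part of UTR length in these shares was not tested. By p-value Sesn2 ranked 1 among genes with a match for each and 6 among those with any. It ranked 2 among the 108 with 8-base matches to miR-23 and miR-27, a class set by its own matches. As Sesn2 ranked 10 among all genes with a p-value, a high rank in any subset that holds it follows from that. A match is a description of the letters, and binding was not measured.

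Sesn3 held the most matches. Its longest 3' UTR has 7395 bases, with 4 matches to miR-23, 2 of them 8 bases long, and 2 to miR-27. The first and second miR-23 matches, at 649 and 675, start 26 bases apart. The other annotated coding transcripts of Sesn3 have 3' UTRs of 71 and 111 bases with 0 matches, so the matches depend on the long form being made, which was not measured here. Tsc1 held 8-base matches to miR-24 and miR-27 at 3412 and 3964 of 3994 bases, and all 4 of its annotated coding transcripts have this UTR. The miR-27 match of Tsc1 ends 23 bases before the annotated end of the UTR. Ddit4 held 1 match, of 7 bases to miR-27, in a UTR of 867 bases.

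Among members that were not called, Sesn1 held 1 match to miR-27 and 2 to miR-24, Rptor 2 to miR-24, and Rps6kb1 2 to miR-27, 1 of them 8 bases long. Tsc2, Rheb and Mtor held 0 in their longest 3' UTRs of 789, 841 and 823 bases. Over all annotated 3' UTRs of a gene, Mtor held 1 match to miR-27, in a short transcript, and Rps6kb1 a further 1 to miR-27 and 2 to miR-24. In the longest UTRs, 7 of 10 members held a match, against 53.4% of genes. By miRNA, 6 of 10 held one for miR-27, against 28.8% of genes, 4 for miR-24, against 26.3%, and 2 for miR-23, against 24.6%. Per kilobase of 3' UTR the members held 0.818 matches and all genes 0.672. Counting 8-base matches alone, 4 of 10 members held one (Sesn2, Sesn3, Tsc1 and Rps6kb1), against 19.5% of genes. The 4 members called higher all held a match, as did 3 of the 6 not called; the 4 had a median UTR of 2839 bases and the 6 a median of 954, and longer UTRs hold more matches of any short sequence.

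**Figure D4:**
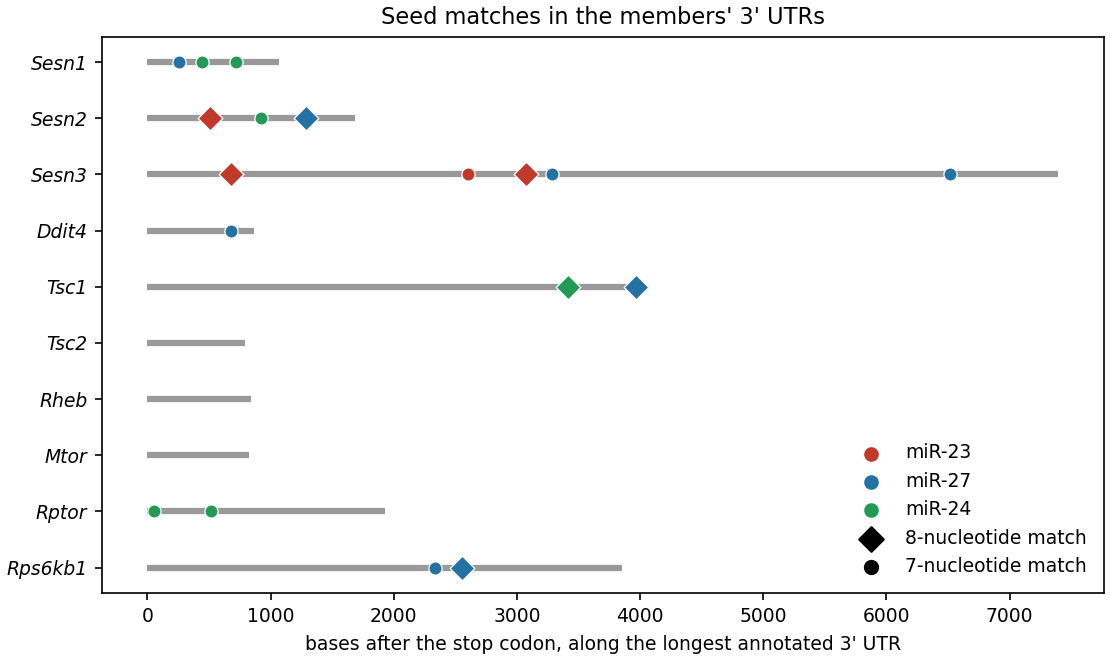
Seed matches along the longest annotated 3' UTR of each member, in bases after the stop codon (x axis), colored by miRNA, with diamonds for 8-base and circles for 7-base matches. Sesn2 alone carries all 3 colors, Sesn3 carries 6 matches of which the first 2 overlap in the plot, and Tsc2, Rheb and Mtor carry none.

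Other genes of the pathway were read from 10 lists of 77 genes, all of them tested. Together 6 were called higher and 16 lower, with a median log2 fold change of -0.05. This split depends on scaling: with the summed group means set equal it was 10 higher and 7 lower, and with Lyz2 left out of those sums 9 and 8. Under the first of these scalings GATOR2 had 1 called higher and 0 lower, and so did KICSTOR and the other mTOR subunits, while the Rag and Ragulator genes had 2 and 1 and the substrates 3 and 2. Which direction holds more of these calls is therefore not fixed by these data. Of the called pathway genes, 27.3% were higher as deposited, 58.8% with equal summed means and 52.9% with Lyz2 left out. Of all genes called, the shares were 49.1%, 70.9% and 67.7%. The pathway share was thus below that of all genes under each, and this difference was not tested. The 4 members called higher were the same under both scalings. Both scalings move every log2 fold change up, so they could hardly remove a call of higher.

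In the amino acid branch, GATOR1, which switches off the Rag GTPases, had 0 of 3 called higher and 1 lower, its subunit Nprl2, at -0.26 (SE 0.07, adjusted p = 0.00296 by DESeq2) in the authors' deposited table. GATOR2, the complex that sestrins bind, had 0 of 5 called by DESeq2, with 1 higher and 1 lower at an unadjusted p under 0.05. KICSTOR, which anchors GATOR1 to the lysosome, had 1 of 4 called, Kics2, at -0.20 (SE 0.08, adjusted p = 0.0419 by DESeq2) in the authors' deposited table. Of the 4 other amino acid sensors, 1 was called, the lysosomal arginine sensor Slc38a9, at -0.17 (SE 0.05, adjusted p = 0.00615 by DESeq2) in the authors' deposited table. With equal summed means Kics2 and Slc38a9 lost their calls (adjusted p = 0.196 and 0.107 on the DESeq2 statistics), and Nprl2 did not.

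Of 12 Rag and Ragulator genes, the lysosomal platform that recruits mTORC1, 1 was called higher and 3 lower. Flcn, folliculin, which acts on RagC and RagD, was at 0.22 (SE 0.07, adjusted p = 0.00794 by DESeq2) in the authors' deposited table. Lamtor1, the Ragulator anchor, was at -0.21 (SE 0.07, adjusted p = 0.0220 by DESeq2) in the authors' deposited table, and its call was lost with equal summed means. Rragb was at -1.26 (SE 0.46, adjusted p = 0.0313 by DESeq2) in the authors' deposited table, from a mean of 23.3 normalized counts, and reads may be shared with its close paralog Rraga.

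Of 9 other subunits and partners of the mTOR complexes, 1 was called, Akt1s1 (PRAS40, an inhibitory mTORC1 subunit), at -0.28 (SE 0.08, adjusted p = 0.00788 by DESeq2) in the authors' deposited table. With equal summed means its adjusted p was 0.0504 on the DESeq2 statistics. Paralogs of Ddit4 and Rheb moved in opposite directions in the list of TSC and Rheb partners, where 1 of 3 was called higher and 1 lower. Ddit4l, the paralog of Ddit4, was at 1.12 (SE 0.36, adjusted p = 0.0135 by DESeq2) in the authors' deposited table, with derived means of 40.5 normalized counts in knockout cells and 18.7 in control cells. The call of Ddit4l is lost at an adjusted p threshold of 0.01, and a filter at a mean of at least 50 leaves it out. Rhebl1, the paralog of Rheb, was at -0.88 (SE 0.20, adjusted p = 1.33e-04 by DESeq2) in the authors' deposited table, with derived means of 92.5 in knockout cells and 170 in control cells.

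Upstream of TSC, 0 of 12 genes from the insulin receptor to Akt were called higher by DESeq2 and 3 lower, against 0 and 5 at an unadjusted p under 0.05. Akt1 was at -0.15 (SE 0.04, adjusted p = 0.00288 by DESeq2) and Pik3cd, a leukocyte PI3-kinase subunit, at -0.22 (SE 0.08, adjusted p = 0.0390 by DESeq2) in the authors' deposited table. With equal summed means Akt1 and Pik3cd lost their calls (adjusted p = 0.114 and 0.163 on the DESeq2 statistics). Of 9 AMPK and LKB1 genes, which activate TSC when energy is low, 1 was called higher and 1 lower. Prkaa2, an AMPK catalytic subunit, was at 1.32 (SE 0.36, adjusted p = 0.00271 by DESeq2) in the authors' deposited table, from a mean of 49.5 normalized counts. A filter at a mean of at least 50 leaves Prkaa2 out. The other catalytic subunit, Prkaa1, named after its value was seen, had a mean of 5768 normalized counts. In the authors' deposited table Prkaa1 was at 0.08 (SE 0.06, adjusted p = 0.356 by DESeq2). Stk11, which encodes LKB1, was at -0.21 (SE 0.05, adjusted p = 4.98e-04 by DESeq2) in the authors' deposited table.

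Of 16 substrates and effectors of mTORC1, 3 were called higher and 4 lower. Eif4ebp2, a translation repressor that mTORC1 inactivates, was at 0.52 (SE 0.09, adjusted p = 1.73e-06 by DESeq2) in the authors' deposited table, with derived means of 12882 in knockout cells and 9000 in control cells. Grb10, an adaptor that dampens insulin signalling once mTORC1 phosphorylates it, was at 1.48 (SE 0.36, adjusted p = 5.42e-04 by DESeq2) in the authors' deposited table, from a mean of 51.4 normalized counts. Tfeb, the lysosomal gene activator that mTORC1 keeps out of the nucleus, was at -0.33 (SE 0.06, adjusted p = 1.90e-06 by DESeq2) in the authors' deposited table. Phosphorylation was not measured, and transcript levels do not give mTORC1 activity.

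**Figure D5:**
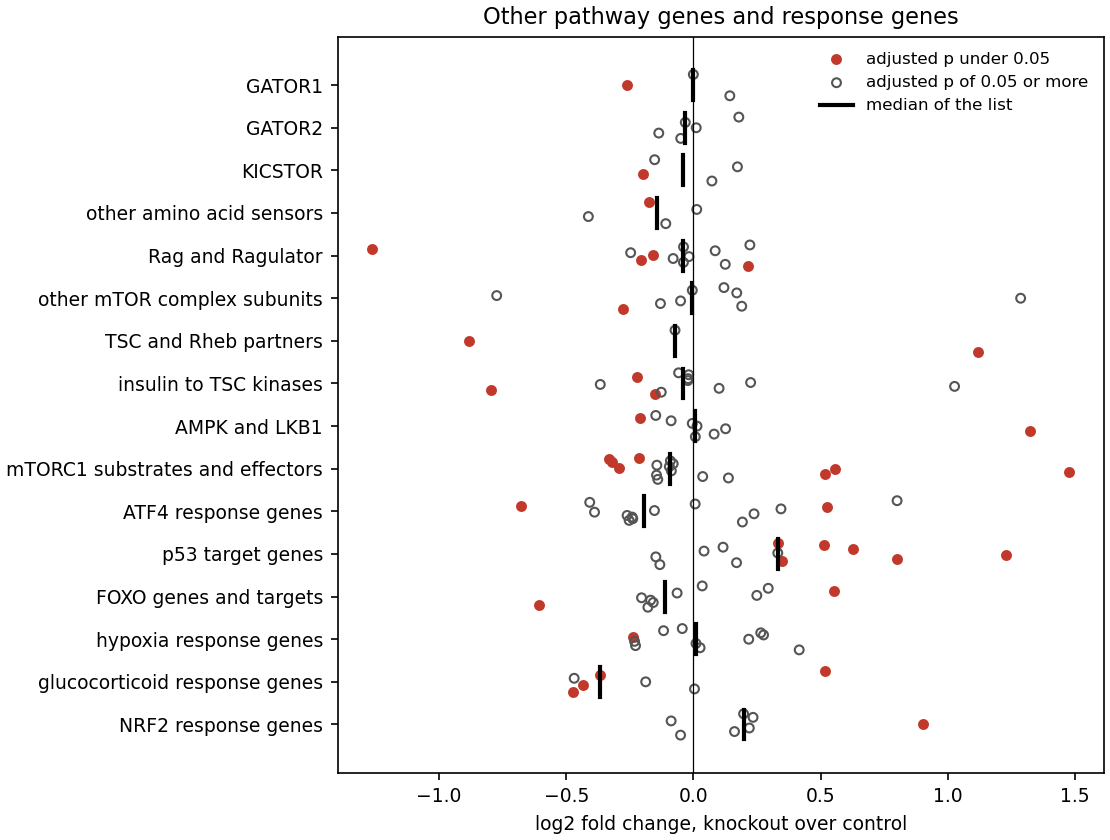
Log2 fold change, knockout over control (x axis), of each gene in 16 lists, filled red where the adjusted p is under 0.05 and open otherwise, with the list median as a black line. The p53 targets lie mostly to the right of 0 (median 0.33) and the glucocorticoid response genes mostly to the left (median -0.37).

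Lists of stress-response genes were read because sestrins and Ddit4 are known targets of several such factors. Among 12 other p53 target genes, 6 were called higher and 0 lower, with a median log2 fold change of 0.33. Ccng1, cyclin G1, was at 0.80 (SE 0.09, adjusted p = 9.80e-18 by DESeq2) in the authors' deposited table, with derived means of 30916 normalized counts in knockout cells and 17777 in control cells. Phlda3, a repressor of Akt, was at 0.63 (SE 0.11, adjusted p = 1.31e-06 by DESeq2) and Zmat3, an RNA-binding protein gene, at 0.33 (SE 0.06, adjusted p = 3.51e-06 by DESeq2) in the authors' deposited table. The count of p53 targets stayed at 6 higher and 0 lower under every scaling and filter run. At an adjusted p threshold of 0.01 it was 5. The scalings move every log2 fold change up, and all 12 genes have means above 50. Those settings could therefore hardly lower the count.

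Of 14 ATF4 response genes, the amino acid shortage response that can raise Sesn2 and Ddit4, 1 was called higher and 1 lower, with a median of -0.20. Psat1, a serine synthesis enzyme, was at 0.53 (SE 0.17, adjusted p = 0.0131 by DESeq2) and Slc7a11, the cystine transporter, at -0.68 (SE 0.23, adjusted p = 0.0186 by DESeq2) in the authors' deposited table. Of 10 FOXO genes and targets, 1 was called higher and 1 lower. Klf2 was at 0.55 (SE 0.11, adjusted p = 9.67e-06 by DESeq2) and Bcl6 at -0.61 (SE 0.10, adjusted p = 4.96e-08 by DESeq2) in the authors' deposited table. Both are transcription factors that restrain inflammatory genes. With equal summed means, with or without Lyz2, the ATF4 list and the FOXO list each had 2 called higher and 1 lower.

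Glucocorticoid response genes, a class to which Ddit4 belongs, had 1 of 7 called higher and 3 lower, with a median of -0.37. Tsc22d3, also called GILZ, was at -0.37 (SE 0.07, adjusted p = 6.55e-06 by DESeq2) in the authors' deposited table. Klf9 was at -0.44 (SE 0.11) and Dusp1, a MAP kinase phosphatase, at -0.47 (SE 0.13) in the authors' deposited table. Zbtb16, a zinc finger transcription factor named after its value was seen, was the 1 called higher, at 0.52 (SE 0.18, adjusted p = 0.0194 by DESeq2) in the authors' deposited table. Of 11 hypoxia response genes, 0 were called higher by DESeq2, with 1 higher at an unadjusted p under 0.05, and 1 was lower, the collagen prolyl hydroxylase subunit P4ha1, at -0.24 (SE 0.07, adjusted p = 0.00560 by DESeq2) in the authors' deposited table. With equal summed means P4ha1 lost its call (adjusted p = 0.0532 on the DESeq2 statistics), and the list had 1 called higher and 0 lower. Of 7 NRF2 response genes, 1 was called, the quinone reductase Nqo1, at 0.90 (SE 0.24, adjusted p = 0.00173 by DESeq2) in the authors' deposited table. That count was 3 with equal summed means, with or without Lyz2, and 2 with a mean of at least 50 or with the median gene at 0.

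Markers of other cells moved in the same comparison. Of 11 stromal markers in the table, 10 were called higher in knockout cells, with a median of 1.91. A derived group mean cannot be 0, so whether each marker was found in both groups is not known here. Their derived levels summed to 6040 normalized counts in knockout cells and 1577 in control cells, which is 0.00884% and 0.00221% of each group's total. Their part in the members' changes was not tested. Macrophage markers other than Lyz2 had 1 of 9 called higher and 4 lower, and summed to 549553 normalized counts in knockout cells and 614853 in control cells. Csf1r, the M-CSF receptor, was at -0.33 (SE 0.09) and Cd68, a lysosomal glycoprotein of macrophages, at -0.26 (SE 0.07) in the authors' deposited table. Adgre1, a macrophage surface receptor gene named after its value was seen, was the 1 called higher, at 0.25 (SE 0.07, adjusted p = 0.00295 by DESeq2) in the authors' deposited table. Csf1r was abundant in either group, with derived means of 144673 normalized counts in knockout cells and 181910 in control cells. Of 11 markers of other blood cells, 2 were in the table, and they summed to 78.8 normalized counts in knockout cells and 81.4 in control cells.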

How the data were processed

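Polyadenylated RNA of 4 knockout and 4 control libraries was analysed from the authors' comparison. The submitters' processing notes name DESeq2, Salmon, cutadapt and FastQC and the mm10 build, without versions or settings. Per the file headers, the deposited table gives a signal (the mean normalized count over all libraries), a log2 fold change with its SE, a score (the Wald statistic) and p-values with adjusted p-values. The deposited adjusted p-values matched a Benjamini-Hochberg adjustment to within 5.66e-09. Another 8 columns of values per library match no sample label and were not used, so depth per library is unknown here, and no counting interval or replicate check is given.

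The sign was read from Lyz2. The 95% intervals are the log2 fold change with its SE on a normal scale. Calls are the authors', at an adjusted p under 0.05. The members and lists were chosen with earlier results of these data known. The text names all 10 members and, of each list, up to 3 called genes with the smallest adjusted p, except that 1 such gene is not reported here. A further rule on genes of like pattern needed values per library. Seed matches were searched in the longest 3' UTR of GENCODE M21 (GRCm38, which is mm10), where 13193 tested genes (90.2%) matched 1 coding gene by symbol and 13058 had a 3' UTR. Mature miRNAs came from RefSeq. Python 3.11.15 and scipy 1.17.1 were used, and the steps were tested on simulated data.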

Additional observations from a re-analysis of the deposited data

How the results depend on the processing

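The count of members called, 4 higher and 0 lower, held without a filter on the mean, with a mean of at least 50, with equal summed group means (a shift of -0.06), with those sums leaving out Lyz2 (a shift of -0.05, chosen after seeing the data) and with the median gene at 0. At an adjusted p threshold of 0.01 it was 3, as Sesn3 no longer passed (adjusted p = 0.0271 by DESeq2), and all genes called numbered 2056 in place of 3363. Equal summed means gave 2339 genes higher and 960 lower, and 2197 and 1046 without Lyz2. These scalings, and that with the median gene at 0, move every log2 fold change up. They could therefore hardly remove a call of higher. Rps6kb1 turned to a positive log2 fold change, uncalled in each case, with equal summed means (0.05, adjusted p = 0.621 on the DESeq2 statistics) and without Lyz2 (0.04, adjusted p = 0.715). Counting 8-base matches alone, members with any match numbered 4, with a miR-27 match 3 and with a miR-24 match 1; the union of all annotated 3' UTRs gave 8 members with any match. The pathway lists went to 10 higher and 7 lower with equal summed means, and to 9 and 8 without Lyz2, in place of 6 and 16. Of the 10 members' adjusted p-values, only those of Sesn3 and Rps6kb1 changed side or sign under the alternatives named here.

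No paired analysis was possible because values of single libraries carry no name that matches a label. For the same reason the fits without single libraries, the limma fit on values per library and other pseudocounts were not run, and whether 1 library decides a call is unknown. Depth per library is unknown, so no limit of detection is given.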
